A study of Mus musculus with 6 samples.

Results

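Neuropeptide genes, some of which peripheral neurons are known to switch on after axon injury, were followed here in picked mouse spinal motor neurons. The 9 genes were *Gal*, *Vip*, *Npy*, *Adcyap1*, *Nts*, *Grp*, *Sst*, *Penk* and *Uts2*, read by gene name from a table of 53858 genes, and each name matched 1 row. The members were chosen by name with the counts of these same libraries, and so the double-labelled against DiO-only contrast, already known. Their differences between the groups are therefore given as a description, with no test. Both groups were spinal cord motor neurons of WT mice taken on day 6 after a sciatic nerve crush. All cells carried DiO, a green lipophilic tracer given at the proximal site on day 0, which filled injured motor neurons. The double-labelled pools (DiO+/DiI+) also carried DiI, a red tracer given at the distal site on day 2, which marked neurons whose regrown axons had arrived there first. The DiO-only pools (DiO+/DiI-) lacked it. Each group had 3 libraries, each made from a pool of 10 to 15 picked cells, and the labels give neither the animals' age nor whether the pools came from separate animals. The spread between pools may therefore be technical.

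A neuropeptide is cut from a larger precursor protein inside the secretory pathway, stored in dense-core vesicles and released to act on G protein-coupled receptors. Galanin, vasoactive intestinal peptide (VIP), neuropeptide Y and pituitary adenylate cyclase-activating polypeptide (PACAP, from *Adcyap1*) are textbook examples of peptides that axotomised sensory, sympathetic or motor neurons induce. In the spinal cord, *Penk*, *Sst*, *Npy*, *Nts* and *Grp* are also transcribed by interneurons of the dorsal horn, whereas urotensin II (*Uts2*) is known from motor neurons.

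Total counts ran from 2997714 to 6563403 in double-labelled pools and from 3747145 to 6505086 in DiO-only pools, and 3 counts in a library corresponded to 0.402 to 1.10 CPM (counts divided by TMM-adjusted library size). Fewer genes had at least 1 count in double-labelled pools, 15657 to 16467, than in DiO-only pools, 17229 to 22118. All 6 motor neuron markers were detected in every library, and *Chat*, of the acetylcholine-synthesising enzyme, stood at 101, 142 and 89.8 CPM in double-labelled pools 1, 2 and 3 and at 73.7, 102 and 59.6 CPM in DiO-only pools 1, 2 and 3. The summed CPM of 10 oligodendrocyte markers was 1423 to 4897 in double-labelled pools, where 9 or 10 were detected, and 276 to 572 in DiO-only pools, where 9 or 10 were also detected. That of 8 astrocyte markers was 565 to 725 in double-labelled pools and 292 to 942 in DiO-only pools. Within that sum *S100b* stood at 345 to 594 CPM in double-labelled pools and 236 to 907 CPM in DiO-only pools. Of 7 tested astrocyte markers, 4 were higher without overlap in double-labelled pools and 0 lower, beside 5.86 and 7.07% of all tested genes. The part of these cell types in the values below was not tested. Because pools are small mixtures, fewer cells of a type and less RNA per cell cannot be told apart.

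The 250 bases before the annotated start are shown for the 2 genes whose groups did not overlap, *Gal* and *Vip*, and for *Adcyap1* and *Sst*, which hold the same cyclic AMP response element letters as *Vip*. All come from RefSeq on GRCm38.p6, are written 5′ to 3′ on the gene's strand, and carry in capitals every match, on either strand, to TGACG, the half-site of that element, and to TGANTCA, the AP-1 element. The *Gal* window is chr19:3414545-3414794 on the minus strand, the *Vip* window chr10:5638968-5639217 on the plus strand, the *Adcyap1* window chr17:93198767-93199016 on the plus strand and the *Sst* window chr16:23890845-23891094 on the minus strand.
Gal: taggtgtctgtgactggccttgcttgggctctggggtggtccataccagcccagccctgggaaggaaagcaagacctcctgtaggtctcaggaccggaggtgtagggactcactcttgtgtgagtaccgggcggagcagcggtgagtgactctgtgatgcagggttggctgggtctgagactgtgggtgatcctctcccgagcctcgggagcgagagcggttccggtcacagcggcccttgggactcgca
Vip: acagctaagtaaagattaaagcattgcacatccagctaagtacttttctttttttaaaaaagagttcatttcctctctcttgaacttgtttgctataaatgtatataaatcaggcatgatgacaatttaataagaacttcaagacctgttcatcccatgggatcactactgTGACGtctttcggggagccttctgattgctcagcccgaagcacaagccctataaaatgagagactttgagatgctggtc
Adcyap1: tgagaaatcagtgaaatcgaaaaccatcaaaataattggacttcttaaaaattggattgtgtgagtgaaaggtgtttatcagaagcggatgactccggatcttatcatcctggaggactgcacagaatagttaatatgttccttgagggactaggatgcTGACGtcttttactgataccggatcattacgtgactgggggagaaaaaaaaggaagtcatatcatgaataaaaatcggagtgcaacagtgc
Sst: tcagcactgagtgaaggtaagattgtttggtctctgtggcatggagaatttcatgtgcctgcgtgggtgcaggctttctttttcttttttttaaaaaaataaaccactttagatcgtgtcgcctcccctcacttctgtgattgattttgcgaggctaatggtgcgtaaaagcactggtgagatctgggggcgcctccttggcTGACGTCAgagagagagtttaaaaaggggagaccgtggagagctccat

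Promoter windows of 300 bases, from 250 before to 50 after the start, were found for 7 of the 9 genes. The half-site TGACG was present in 5 of these 7 genes, *Vip*, *Adcyap1*, *Sst*, *Nts* and *Gal*, and in 20.8% of all 32851 windows. The longer TGACGTC, chosen after the sequences were seen and containing the half-site, was present in *Vip*, *Adcyap1* and *Sst* and in 3.21% of all windows. The full palindrome TGACGTCA was present in *Sst* only of the 7, and in 1.79% of all windows. In *Vip* the TGACGTC letters began 79 bases before the start and in *Sst* 48 bases before it. In *Adcyap1* they began 91 bases before the first of its 2 annotated starts. These starts are those of RefSeq. For *Sst* and *Nts* they lie inside the gene coordinates given below, which come from GENCODE, and the *Sst* letters fall within those coordinates. The *Gal* half-site lay at base 20 after the annotated start, so the *Gal* letters above hold no match. TGANTCA was present in *Nts* only, and in 7.81% of all windows. *Npy* and *Uts2* held none of these letters in their windows. A match is a string of letters, not a shown binding site.

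*Gal*, the galanin gene (ENSMUSG00000024907; mm10 chromosome 19, 3409915 to 3414544, minus strand), was the most abundant of the 9 per transcript length in every DiO-only pool and was far lower in every double-labelled pool. It stood at 3.29, 126 and 12.1 CPM in double-labelled pools 1, 2 and 3, against 2889, 10020.1 and 1363 CPM in DiO-only pools 1, 2 and 3. Double-labelled pool 2 was the high one of its group, yet the lowest DiO-only pool was still 10.8 times above it. The raw counts were 16, 344 and 90 in double-labelled pools and 19805, 29994 and 7931 in DiO-only pools. The 16 counts have an exact 95% Poisson interval of 9.15 to 26.0, so counting error is small against the gap. Such intervals cover counting error only, since reads amplified over 20 PCR cycles without molecular identifiers are not independent molecules. The log2 fold change of *Gal*, double-labelled over DiO-only, was -6.68 ± 1.64 (SE, n = 3 each), and it ran from -9.29 to -5.51 when each library was left out in turn. By CPM per kilobase of exon (RPKM), *Gal* ranked 8, 5 and 20 among all genes in DiO-only pools 1, 2 and 3, and 7097, 261 and 2835 in double-labelled pools 1, 2 and 3.

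*Vip* (ENSMUSG00000019772; mm10 chromosome 10, 5639218 to 5647617, plus strand) was a low-level transcript with the same split between the groups. It stood at 0, 7.32 and 8.04 CPM in double-labelled pools 1, 2 and 3 and at 34.1, 48.4 and 44.5 CPM in DiO-only pools 1, 2 and 3. The groups did not overlap, and the lowest DiO-only pool was 4.25 times above the highest double-labelled pool. The 0 in double-labelled pool 1 allows up to 0.616 CPM at a floor of 3 counts. The log2 fold change was -3.05 ± 0.91 (SE, n = 3 each) and ran from -3.67 to -2.46 when each library was left out. The DiO-only pools were close together, with a range of 0.50 on the log2 CPM scale (prior count 2) that was wider than in only 22.1% of 12954 tested genes. The *Gal* range in the same pools, 2.88, was wider than in 94.9% of tested genes. Among double-labelled pools the *Vip* range was 4.43 and the *Gal* range 5.10, wider than in 95.3 and 98.1% of tested genes.

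*Gal* and *Vip* were the 2 of 9 members whose groups did not overlap, both lower in double-labelled pools, where 7.07% of all tested genes were lower without overlap and 5.86% higher without overlap. The members were chosen with this contrast in view, so nothing is read from that count. All 9 group means were lower in double-labelled pools on the fitted log2 scale, against 48.7% of all tested genes, and the same caution applies. All 9 passed the filter on low counts. Across the transcriptome, edgeR's quasi-likelihood test with Benjamini-Hochberg adjustment called 0 of 12954 genes (0%) at an adjusted p under 0.05, with 341 genes lower and 412 higher at an unadjusted p under 0.05. DESeq2 without that filter called 75 of 15233 genes (0.492%), and edgeR without the filter called 79 of 28513 genes (0.277%). With the replicate number as a block, edgeR called 23 genes (0.178%). Calls are not given for the members, since this contrast was in view when they were chosen.

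**Figure D1:**
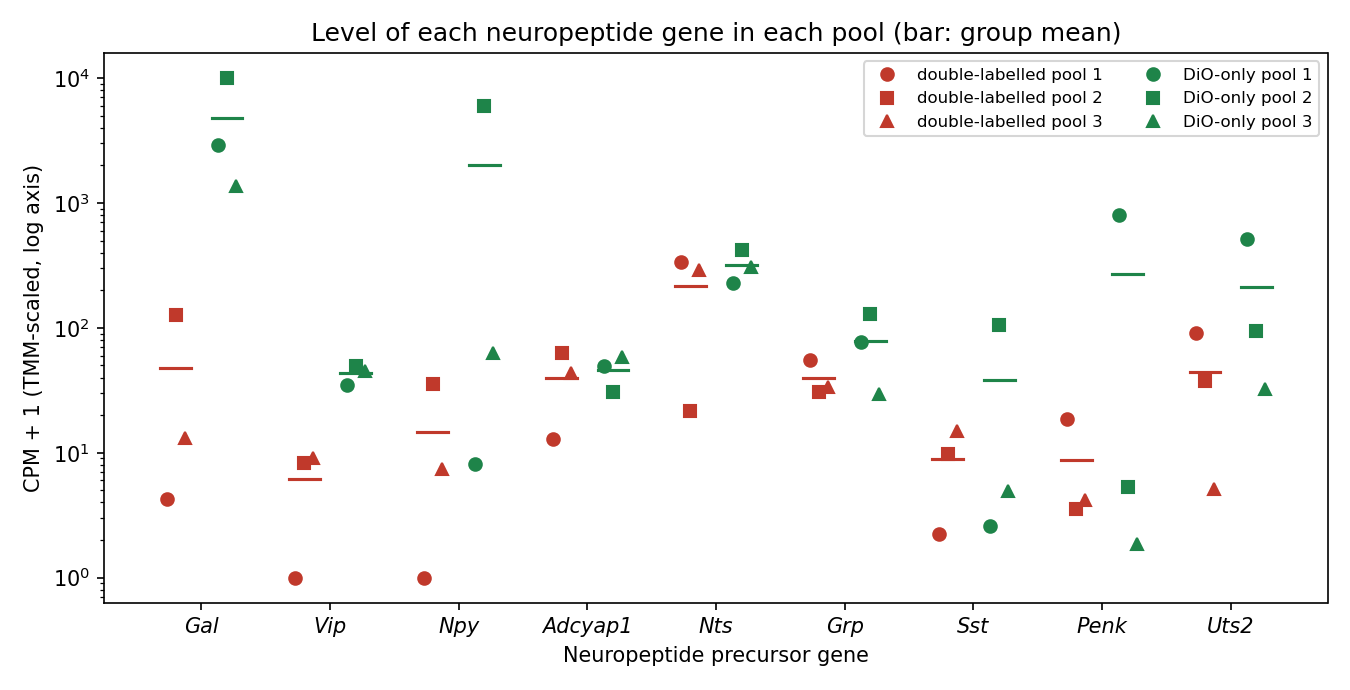
Level of each of the 9 neuropeptide genes in each library, as TMM-scaled CPM plus 1 on a log axis; double-labelled pools are red and DiO-only pools green, symbols mark pool numbers and bars the group means. The *Gal* points lie at 3.29 to 126 CPM in double-labelled pools and at 1363 to 10020.1 CPM in DiO-only pools, while *Npy*, *Penk* and *Sst* each have 1 DiO-only pool far above all others.

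*Npy*, of neuropeptide Y (ENSMUSG00000029819; mm10 chromosome 6, 49822710 to 49829507, plus strand), differed between the groups through 1 library. It stood at 0, 34.4 and 6.43 CPM in double-labelled pools 1, 2 and 3 and at 7.15, 5948 and 61.9 CPM in DiO-only pools 1, 2 and 3. DiO-only pool 2 held 98.2% of the CPM summed over the 6 libraries, and DiO-only pool 1 stood below double-labelled pool 2. The log2 fold change of -7.26 ± 3.32 (SE, n = 3 each) came to -1.35 without DiO-only pool 2 and to -3.78 with limma voom and sample quality weights. The range of *Npy* among DiO-only pools was 9.62 on the log2 CPM scale, where the median tested gene had 0.90. In that same pool the 6 inhibitory interneuron markers summed to 1.34 CPM, with *Slc32a1*, *Slc6a5*, *Pax2* and *Pax8* at 0 counts. The 6 excitatory interneuron markers summed to 133 CPM there, the highest sum of the DiO-only pools but below the 179 CPM of double-labelled pool 2. Of the 133 CPM, *Cck* made up 124 CPM and *Slc17a6* 8.02 CPM, while *Lmx1b*, *Tlx3* and *Tac1* were at 0 counts. The part of such cells in the *Npy* value was not tested.

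*Penk*, the proenkephalin gene (ENSMUSG00000045573; mm10 chromosome 4, 4133531 to 4138819, minus strand), showed the same form in another pool. It stood at 17.7, 2.56 and 3.22 CPM in double-labelled pools 1, 2 and 3 and at 804, 4.34 and 0.859 CPM in DiO-only pools 1, 2 and 3. DiO-only pool 1 held 96.6% of the summed CPM, and the other DiO-only pools lay below double-labelled pool 1. The log2 fold change was -5.09 ± 2.73 (SE, n = 3 each) and turned to 1.60 without DiO-only pool 1. It was -2.41 with limma voom and -2.17 with the replicate block. The 6 excitatory interneuron markers summed to 127 CPM in DiO-only pool 1, below the 179 CPM of double-labelled pool 2 and the 133 CPM of DiO-only pool 2. Within that list *Slc17a6* was highest in DiO-only pool 1, at 62.6 CPM, *Cck* stood at 61.3 CPM there, and *Lmx1b* and *Tlx3* were at 0 counts. The part of such cells in the *Penk* value was not tested. A830012C17Rik, a gene on the opposite strand that shares 233 exonic bases with *Penk*, had 323 counts in DiO-only pool 1 and 0 in every other library, and reads in the shared stretch cannot be told apart.

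*Sst* (ENSMUSG00000004366), the somatostatin gene on the minus strand of mm10 chromosome 16 from 23889573 to 23890958, was high in the pool that was high in *Npy*. It stood at 1.23, 8.78 and 13.8 CPM in double-labelled pools 1, 2 and 3 and at 1.60, 105 and 3.95 CPM in DiO-only pools 1, 2 and 3. Its log2 fold change of -2.19 ± 1.41 (SE, n = 3 each) had no fixed direction, at 1.52 without DiO-only pool 2 and 0.64 with limma voom and sample quality weights. With the replicate block it was -0.71. *Uts2*, of urotensin II (ENSMUSG00000028963; mm10 chromosome 4, 150997097 to 151001810, plus strand), stood at 89.8, 36.6 and 4.15 CPM in double-labelled pools 1, 2 and 3 and at 515, 92.9 and 31.6 CPM in DiO-only pools 1, 2 and 3. DiO-only pool 1 was again the high library, and DiO-only pool 3 lay below double-labelled pools 1 and 2. The log2 fold change was -2.30 ± 1.29 (SE, n = 3 each) and came to -0.52 without DiO-only pool 1. *Uts2* lies inside *Camta1* on the opposite strand and shares 0 exonic bases with it.

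*Npy* and *Penk* were each concentrated in a single library. This is given as a description, since the members were chosen with these counts known. Of the 12954 tested genes, 3 had at least 90% of their summed CPM in 1 library, *Npy*, *Penk* and *Pdlim1* (0.0232%), where the median gene had 27.8% in its highest library. The filter on low counts removes genes seen in few libraries, so the count was repeated without it. Among the 7185 genes with a summed level of at least 100 CPM, 3 reached 90%, namely *Npy*, *Penk* and *Adam33* (0.0418%). At a share of 50% or more the tested genes numbered 527 (4.07%). They included 5 of the 9 members, *Gal*, *Npy*, *Sst*, *Penk* and *Uts2*, and nothing is read from that count for the same reason. Each of these 5 was highest in DiO-only pool 1 or 2. The other 4 members held between 24.4 and 36.9% in their highest library.

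**Figure D2:**
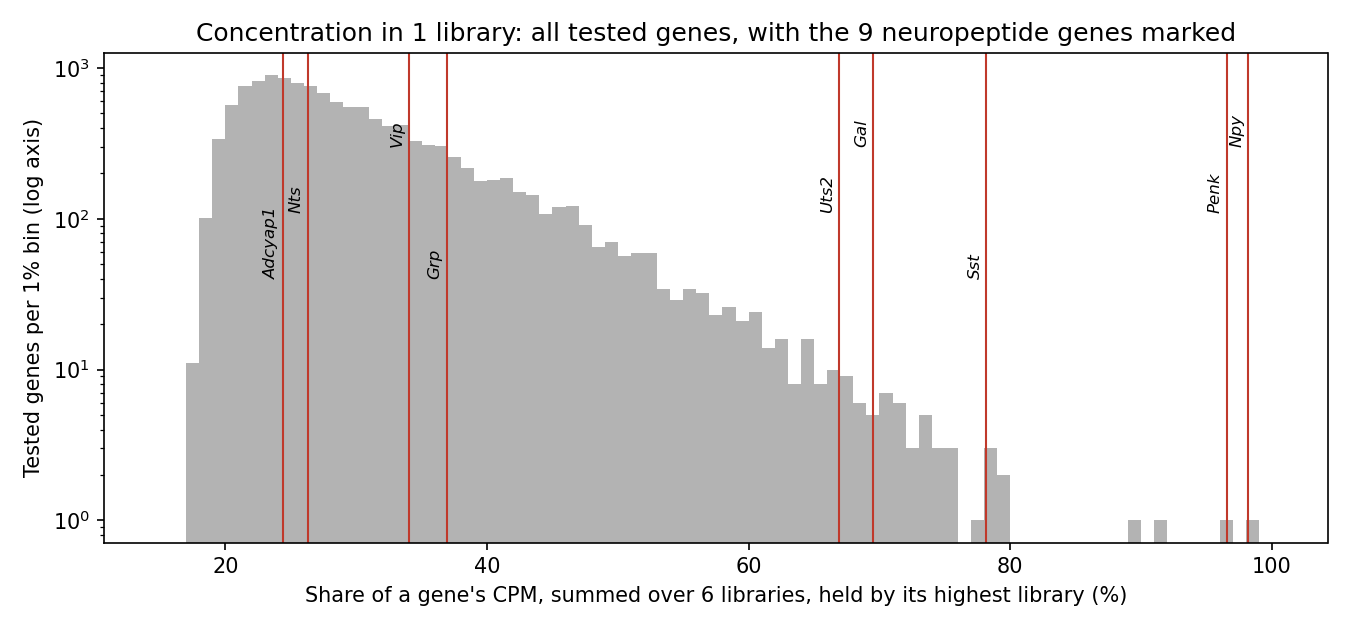
Share of a gene's CPM, summed over the 6 libraries, that its highest library holds (horizontal axis, %) against the number of tested genes per 1% bin (log axis); red lines mark the 9 neuropeptide genes. *Npy* at 98.2% and *Penk* at 96.6% stand at the far right, and *Adcyap1* at 24.4% stands below the median gene at 27.8%.

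*Nts*, *Grp* and *Adcyap1* had overlapping groups and smaller differences. *Nts* (ENSMUSG00000019890), which encodes neurotensin on the minus strand of mm10 chromosome 10 from 102481756 to 102490486, stood at 334, 20.5 and 290 CPM in double-labelled pools 1, 2 and 3 and at 226, 420 and 307 CPM in DiO-only pools 1, 2 and 3. Double-labelled pool 2 was the single low library, and the log2 fold change of -0.56 ± 0.70 (SE, n = 3 each) came to -0.05 without it, to -2.07 with limma voom and to -0.98 with the replicate block. *Grp*, of gastrin-releasing peptide (ENSMUSG00000024517; mm10 chromosome 18, 65872820 to 65886596, plus strand), stood at 54.2, 29.6 and 32.4 CPM in double-labelled pools 1, 2 and 3 and at 75.6, 129 and 28.5 CPM in DiO-only pools 1, 2 and 3. DiO-only pool 3 was the lowest of all 6 libraries for *Grp*, and its log2 fold change was -0.996 ± 0.508 (SE, n = 3 each), or -0.43 without DiO-only pool 2. *Adcyap1*, the PACAP gene (ENSMUSG00000024256; mm10 chromosome 17, 93199017 to 93206537, plus strand), stood at 11.9, 61.5 and 42.5 CPM in double-labelled pools 1, 2 and 3 and at 48.7, 29.4 and 57.7 CPM in DiO-only pools 1, 2 and 3. Its highest library was double-labelled pool 2, which made it the only one of the 9 with its top value in that group. Its log2 fold change of -0.24 ± 0.54 (SE, n = 3 each) turned to 0.19 without double-labelled pool 1 and was -0.46 with the replicate block. Although PACAP and VIP are related peptides of the secretin family, the *Adcyap1* and *Vip* values split differently here, and a test of the difference between them was not made.

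Scaled by exon length, the mixture of the 9 genes varied between pools, within the double-labelled group too. In double-labelled pools 1 and 3 *Nts* led, with 54.5 and 71.9% of the summed RPKM of the 9 genes. In double-labelled pool 2 *Gal* led with 44.7%, and *Npy* held 17.0% and *Nts* 4.6%. *Gal* led in all 3 DiO-only pools, with 68.1, 53.0 and 78.7% in pools 1, 2 and 3. The second gene was *Uts2* in double-labelled pools 1 and 2, with 34.0 and 19.0%, and *Grp* in pool 3, with 6.78%. In DiO-only pools the second gene was *Uts2* in pool 1, with 17.8%, *Npy* in pool 2, with 43.8%, and *Nts* in pool 3, with 11.2%. The summed level of the 9 genes was 491, 357 and 324 RPKM in double-labelled pools 1, 2 and 3 and 5385, 23992 and 2197 RPKM in DiO-only pools 1, 2 and 3. Without *Gal* and *Npy* it was 487, 137 and 297 RPKM in double-labelled pools and 1706, 767 and 359 RPKM in DiO-only pools, so that double-labelled pool 1 then stood above DiO-only pool 3. By mean RPKM the order was *Nts*, *Uts2*, *Gal*, *Grp*, *Npy*, *Sst*, *Adcyap1*, *Penk* and *Vip* in double-labelled pools, and *Gal*, *Npy*, *Uts2*, *Nts*, *Penk*, *Grp*, *Sst*, *Vip* and *Adcyap1* in DiO-only pools. All 8 neighbouring pairs in each order had overlapping ranges over the 3 pools, while *Nts* and *Vip* in double-labelled pools, and *Gal* and *Adcyap1* in DiO-only pools, did not overlap.

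**Figure D3:**
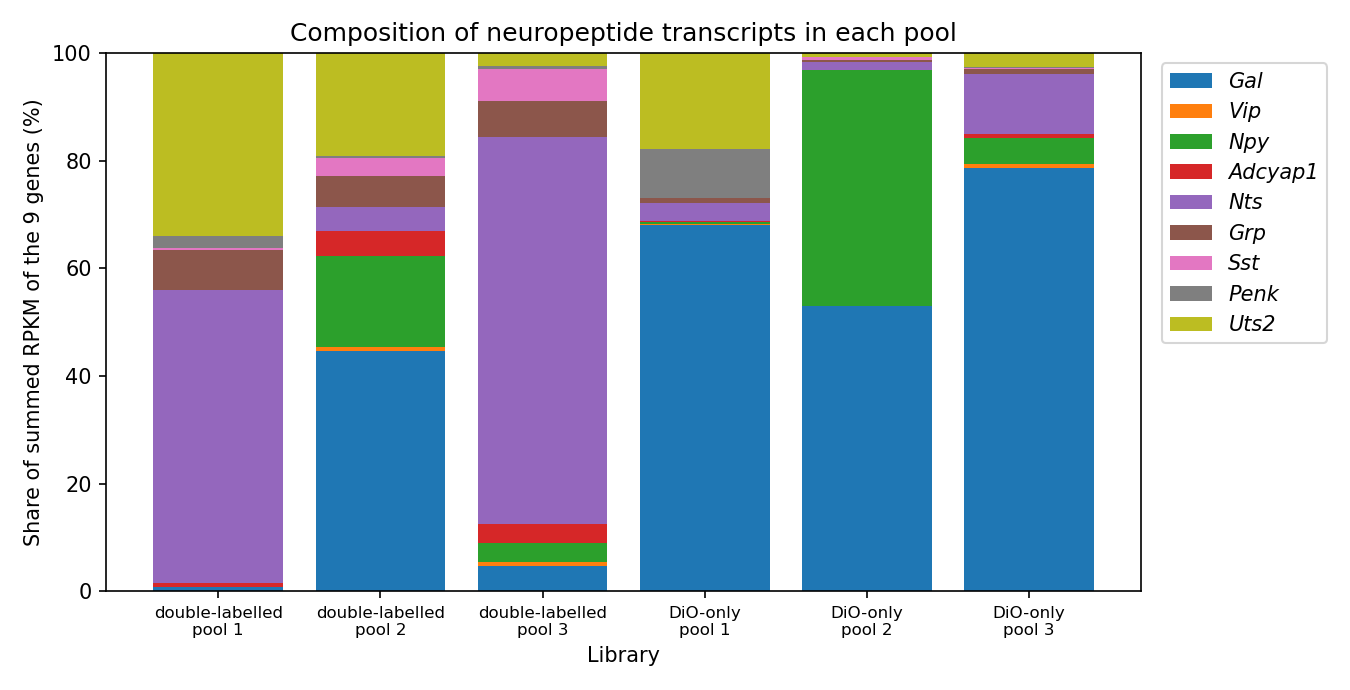
Share of each gene in the summed length-scaled level (RPKM) of the 9 neuropeptide genes, by library, with double-labelled pools on the left and DiO-only pools on the right. *Gal* takes 0.85 to 44.7% in double-labelled pools and 53.0 to 78.7% in DiO-only pools, and *Nts* takes 54.5 and 71.9% in double-labelled pools 1 and 3.

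Genes with the most similar profiles were found by the root mean square difference between log2 CPM profiles (prior count 2), each centred on its mean over the 6 libraries. Nearest to *Gal* were *Ccl8*, *Serpinb2*, *Tspan14*, *Sertm1* and *Vip*, at 1.71 to 2.28 log2 units, where the median tested gene lay at 4.17. *Ccl8*, a chemokine gene, stood at 0, 0.366 and 0 CPM in double-labelled pools 1, 2 and 3 and at 22.2, 63.5 and 4.12 CPM in DiO-only pools 1, 2 and 3. Its high and low pools fell in the same order as those of *Gal* among the DiO-only libraries. Nearest to *Vip* were *Tgfb1i1*, *Serpinb5*, *En1*, 1110059E24Rik and *Elp4*, at 0.602 to 0.807 log2 units, where the median lay at 2.47. Nearest to *Npy* were *Fabp4*, *Klf5*, *Serpinb2*, *Dipk2a* and *Sst*, at 2.57 to 2.69 log2 units, where the median lay at 4.25. This distance grows with the height of a peak, so it cannot show whether a gene with a smaller peak had the same form. For *Penk*, added after the values were seen, the 2 nearest were *Uts2* and *Slc17a6*, at 1.99 and 2.10 log2 units, where the median lay at 3.13. The places of *Vip* beside *Gal*, and of *Serpinb2* and *Sst* beside *Npy*, depended on the prior count, as given in the closing section. All these profiles share the same 6 libraries and their depths.

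Receptors for these peptides were mostly near the limit of detection. Of 24 receptor genes, 9 were tested, 6 had 0 counts in every library, and 0 passed in edgeR over all genes (smallest adjusted p = 0.597). The 9 tested had a median log2 fold change of 1.09, beside 0.02 for all tested genes, with 7 higher and 2 lower in double-labelled pools. At an unadjusted p under 0.05 there were 3 higher, *Ntsr2*, *Sort1* and *Vipr2*, and 0 lower, where 3.18 and 2.63% of all tested genes were. The receptor list was chosen with earlier results of these data known, so nothing is read from those counts. *Ntsr2*, a neurotensin receptor gene that astrocytes are known to express, stood at 76.0, 17.6 and 35.0 CPM in double-labelled pools 1, 2 and 3 and at 9.19, 5.68 and 14.4 CPM in DiO-only pools 1, 2 and 3. The groups did not overlap. Of 7 tested astrocyte markers, 4 were likewise higher without overlap, *Aqp4*, *Slc1a2*, *Gja1* and *Atp1b2*, beside 5.86% of all tested genes. The summed level of all 8 overlapped, and *S100b* made up 907 of the 942 CPM in DiO-only pool 2. The part of such cells in the *Ntsr2* value was not tested. *Sort1*, of sortilin, a sorting receptor that binds neurotensin, stood at 115, 92.2 and 71.2 CPM in double-labelled pools and at 58.5, 50.4 and 21.8 CPM in DiO-only pools 1, 2 and 3. *Vipr2*, of a receptor for VIP and PACAP, stood at 14.2, 40.6 and 28.7 CPM in double-labelled pools and at 16.2, 4.34 and 4.30 CPM in DiO-only pools 1, 2 and 3, with overlap. *Adcyap1r1*, of the PACAP receptor, had a log2 fold change of 1.30 ± 0.63 (SE, n = 3 each; edgeR adjusted p = 0.872). *Npy1r* and *Npy2r*, of neuropeptide Y receptors, were the 2 below 0, at -0.58 ± 0.47 and -1.22 ± 1.27 (SE). The galanin receptor genes *Galr1*, *Galr2* and *Galr3* had 1, 12 and 0 counts over all libraries, so no difference was detectable at this depth.

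Of 18 genes that process and store peptides, 1, *Cadps2*, was lower without overlap in double-labelled pools and 0 were higher. Of all tested genes 7.07% were lower and 5.86% higher without overlap, so nothing is read from that count. All 18 were tested, 0 passed in edgeR over all genes (smallest adjusted p = 0.866), and 11 were higher and 7 lower, with a median log2 fold change of 0.26. None of the 18 had an unadjusted p under 0.05. *Pcsk2*, of a prohormone convertase, stood at 150, 153 and 124 CPM in double-labelled pools 1, 2 and 3 and at 169, 141 and 74.2 CPM in DiO-only pools 1, 2 and 3. *Cpe*, of the carboxypeptidase that trims cut peptides, had a log2 fold change of 0.24 ± 0.34 (SE, n = 3 each), and *Pam*, of the enzyme that amidates galanin, VIP and neuropeptide Y, one of -0.34 ± 0.52. *Chga*, *Chgb* and *Scg2*, of granins that fill dense-core vesicles, had log2 fold changes of 0.79 ± 0.36, 0.29 ± 0.33 and 0.32 ± 0.49 (SE). *Pcsk1*, of the other main convertase, was a low-level transcript at 0, 4.39 and 0.268 CPM in double-labelled pools and 3.06, 6.68 and 10.3 CPM in DiO-only pools 1, 2 and 3. *Cadps2*, of a vesicle priming factor, stood at 0.732 to 1.61 CPM in double-labelled pools and 3.65 to 5.68 CPM in DiO-only pools. Its counts were low, from 2 to 25 per library.

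Precursor genes of other peptides were split in direction. Of 53, 13 were tested, 15 had 0 counts in every library, and 0 passed in edgeR over all genes (smallest adjusted p = 0.618). There were 10 higher and 3 lower, with a median log2 fold change of 0.43, where 48.7% of all tested genes were lower. Without overlap 1 was lower and 1 higher, beside 7.07 and 5.86% of all tested genes, so nothing is read from these counts. *Calca*, of calcitonin gene-related peptide, was lower without overlap, at 2061 to 3744 CPM in double-labelled pools and 3818 to 14613 CPM in DiO-only pools, while its related gene *Calcb* stood at 354 to 922 CPM in double-labelled pools and 205 to 581 CPM in DiO-only pools. Reads of this similar pair could have been split in counting. *Uts2b*, the paralogue of *Uts2*, had a log2 fold change of 0.74 ± 0.42 (SE, n = 3 each) with overlapping groups. *Adm*, of adrenomedullin, stood at 9.45, 3.29 and 0.402 CPM in double-labelled pools 1, 2 and 3 and at 28.4, 3.01 and 23.9 CPM in DiO-only pools 1, 2 and 3. *Apln*, of apelin, was higher without overlap, at 2.28 to 17.3 CPM in double-labelled pools and 0 to 1.20 CPM in DiO-only pools.

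Cytokine and transcription factor genes known to act on neuropeptide genes after axotomy went both ways. Of 23, 18 were tested, with 0 passing in edgeR over all genes (smallest adjusted p = 0.476), 9 higher, 9 lower and a median log2 fold change of 0.01. At an unadjusted p under 0.05 there were 4 lower, *Smad1*, *Jun*, *Sox11* and *Atf3*, and 1 higher, *Tyk2*, where 2.63% of all tested genes were lower and 3.18% higher. This list was chosen with earlier results of these data known, so nothing is read from those counts. *Atf3*, of a stress-induced factor of the CREB/ATF family, stood at 212, 575 and 645 CPM in double-labelled pools 1, 2 and 3 and at 770, 1305 and 1116 CPM in DiO-only pools 1, 2 and 3. Its lowest library, double-labelled pool 1, was also the lowest for *Gal*, *Vip*, *Npy*, *Sst* and *Adcyap1*, but not for *Nts*, *Grp*, *Penk* and *Uts2*. Among double-labelled pools *Atf3* was highest in pool 3 and *Gal* in pool 2. A link between these genes was not tested. *Jun*, of an AP-1 subunit, stood at 105, 124 and 208 CPM in double-labelled pools and at 315, 222 and 352 CPM in DiO-only pools 1, 2 and 3. The differences of *Atf3* and *Jun*, -1.16 ± 0.42 and -1.02 ± 0.35 on the log2 scale (SE, n = 3 each), were set beside -6.68 for *Gal*, and a test between genes was not made. The gp130 pathway genes *Il6st*, *Lifr* and *Stat3* had log2 fold changes of -0.08 ± 0.52, -0.29 ± 0.37 and -0.28 ± 0.33 (SE).

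**Figure D4:**
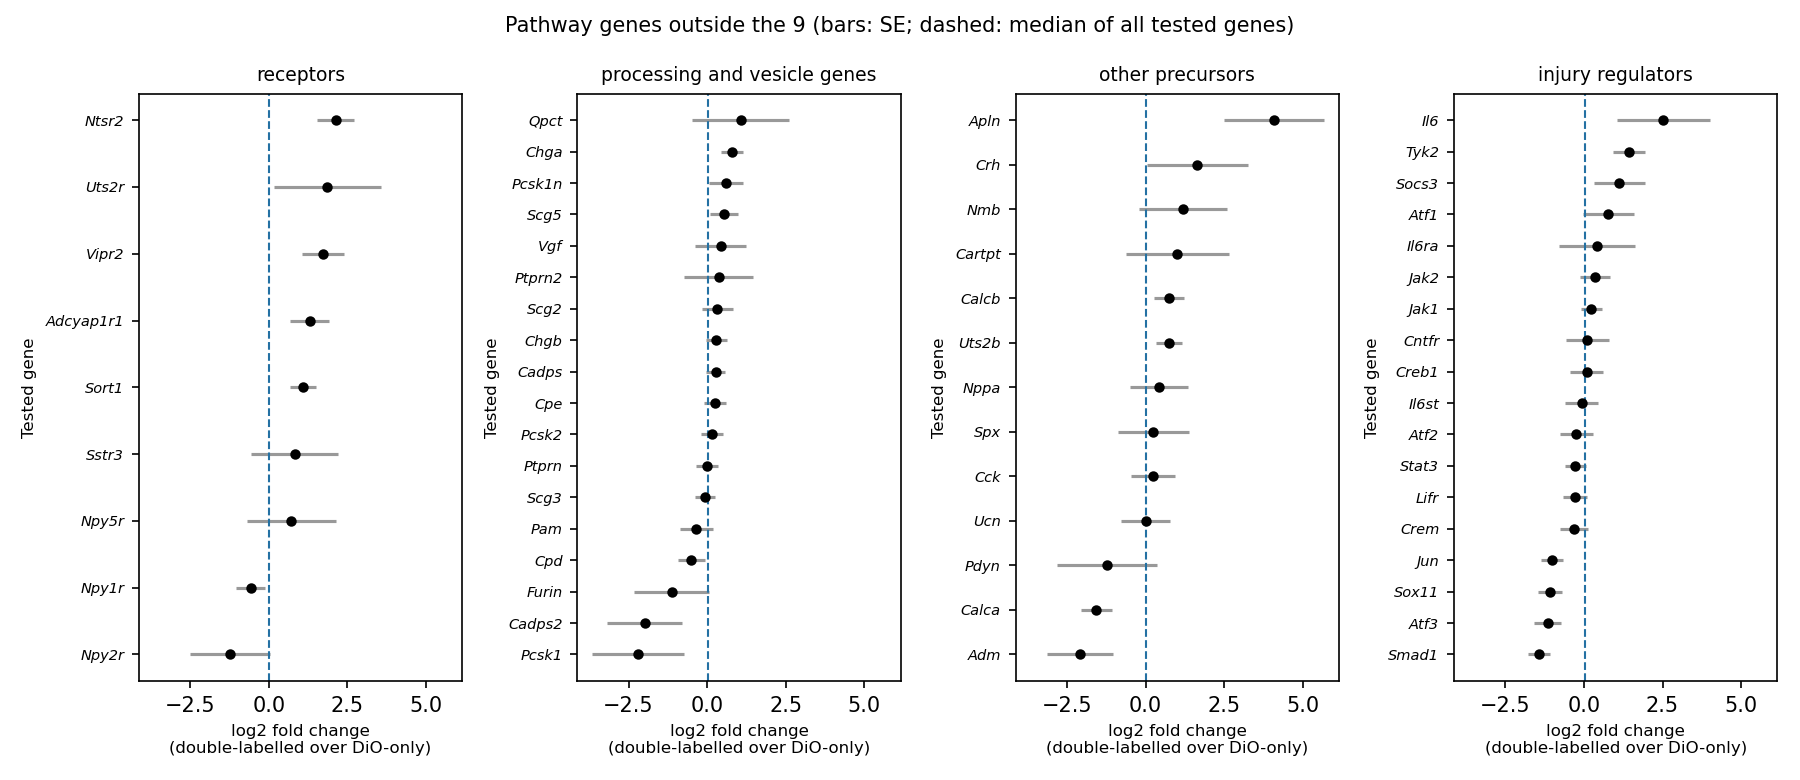
Log2 fold change, double-labelled over DiO-only, with its SE for each tested receptor, processing and vesicle gene, other precursor and injury regulator; the dashed line is the median of all tested genes at 0.02. Receptors run from -1.22 to 2.12, and the processing and vesicle genes from -2.20 to 1.06 with none past the test.

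Interneuron marker sums varied between pools. The 6 inhibitory markers summed to 15.2, 1.46 and 0.402 CPM in double-labelled pools 1, 2 and 3 and to 5.54, 1.34 and 113 CPM in DiO-only pools 1, 2 and 3. The highest library, DiO-only pool 3, owed this to *Slc6a5*, of the glycine transporter, at 92.4 CPM. The same library was the lowest for *Penk* and *Grp* and the second highest for *Npy*, at 61.9 CPM, above every double-labelled pool, and the part of such cells in these values was not tested. The 6 excitatory markers, which include the peptide genes *Cck* and *Tac1*, summed to 55.7, 179 and 37.3 CPM in double-labelled pools and to 127, 133 and 34.5 CPM in DiO-only pools 1, 2 and 3. The 5 endothelial markers summed to at most 3.08 CPM in double-labelled pools and 29.4 CPM in DiO-only pools, and the 8 microglial markers to 48.7 to 110 CPM in double-labelled pools and 82.2 to 86.1 CPM in DiO-only pools.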

How the data were processed

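Per the labels, cDNA of picked cells was amplified by SMART-Seq HT. The deposited values are raw read counts per Ensembl gene. The tools named, per the submitters' processing notes, are HISAT2, HTSeq and FastQC, with build mm10. Not given in the sources used here: versions, annotation, strand setting and multimapping. The series table equals the 6 single-library files. Gene IDs were matched to GENCODE M21 on GRCm38 (53772 of 53858), which gave coordinates and exon lengths.

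Genes were filtered with filterByExpr in edgeR 4.0.16 (R 4.3.3), keeping 12954 genes with 99.2% of counts, TMM-scaled, and compared with the robust quasi-likelihood test, two-sided, Benjamini-Hochberg adjusted, threshold 0.05. The F statistic gave each standard error. In simulated counts the edgeR test recovered 4% of 2-fold, 44% of 4-fold, 64% of 8-fold and 72% of 16-fold changes. It made 97 calls there, of which 5 were false. A gene that did not pass may therefore still differ. The same test made 0 calls in the deposited counts (smallest edgeR adjusted p = 0.308). Whether the simulated counts varied between pools as much as the deposited counts was not tested. Recovery in the deposited counts may therefore be lower than these rates. Alternatives were other scalings and filters, DESeq2 1.42.0, limma 3.58.1 voom, a replicate block and leaving out each library. Library totals ran from 2997714 to 6563403 counts.

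The members and gene lists were chosen with earlier results of these data known. Named genes were the 9 members, tested receptors, up to 5 genes of smallest p per other list with a fixed set beside them, and the 5 nearest profiles. *Adam33*, *Pdlim1*, *Il6st*, *Lifr*, *Stat3*, *S100b* with 4 other astrocyte markers, and the profiles near *Penk* were named after their values were seen. Figures used matplotlib 3.10.9. Precursor protein sequences were not used here.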

Additional observations from a re-analysis of the deposited data

How the results depend on the processing

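The number of genes called over all genes, 0, stayed at 0 with RLE size factors, with total-count scaling, with a filter of 10 counts in 3 libraries and with limma voom, and ran from 0 to 0 when each library was left out. It came to 75 with DESeq2, to 79 in edgeR without a filter on low counts, and to 23 with the replicate block. Without the filter 1 receptor, *Ntsr2* (edgeR adjusted p = 0.0498), and 1 other precursor, *Calca* (edgeR adjusted p = 0.000805), were called. The labels mention 3 batches of libraries without saying which library was in which, so whether a replicate number marks a batch is not known. The numbers were not taken as pairs: the deviations of same-numbered pools correlated across genes at 0.0742, 0.228 and 0.203 for pools 1, 2 and 3, not all above 0.1, although every pool correlated best with its own number, a hint from the data. All 9 members kept a log2 fold change below 0 under RLE, total counts, both filter changes, DESeq2 and the block. Signs turned for *Sst* with limma voom (0.64) and without DiO-only pool 2 (1.52), for *Penk* without DiO-only pool 1 (1.60) and for *Adcyap1* without double-labelled pool 1 (0.19); the cause was not tested. Leaving out each library, *Nts* ran from -1.05 to -0.05, *Sst* from -2.94 to 1.52, *Penk* from -6.51 to 1.60 and *Adcyap1* from -0.75 to 0.19. With a prior count of 0.5 the 5 nearest profiles kept 3 genes for *Gal*, 4 for *Vip* and 2 for *Npy*. Under that prior count *Vip* moved from rank 5 to 36 among the genes nearest to *Gal*. For *Npy*, *Serpinb2* moved from rank 3 to 53 and *Sst* from rank 5 to 42. *Uts2* kept rank 1 for *Penk*. A likeness of *Gal* with *Vip*, or of *Npy* with *Sst*, is therefore not read from these ranks. Genes with few counts, such as the galanin receptors, are limited by depth.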
